A study of Mus musculus with 3 samples.

Results

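The genes described here encode the proteins of the cytosolic ribosome. They were taken by symbol: protein-coding genes named Rpl or Rps with a number, with Rpsa, Rplp0, Rplp1 and Rplp2, and without pseudogene or Rps6k names. A gene also needed a count of 10 or more in any library. The rule kept 83 genes of the 14003 genes that reached this count, 49 of the large subunit and 34 of the small subunit by their symbols. In all, 93 symbols matched before the count and biotype conditions. Of the 10 left out, Rpl3l, Rpl39l and Rpl10l had too few counts (at most 6 in a library), and Rps3a2, Rps3a3, Rpl37rt, Rps12l1, Rps4l, Rpl6l and Rpl32l are annotated as pseudogenes. The rule also takes Rpl7l1, a paralogue of Rpl7, and Rps19bp1, which encodes a protein that binds RPS19, although neither is counted among the core ribosomal proteins.

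The large subunit joins amino acids, and the small subunit reads the mRNA. Ribosomal proteins are made in matched amounts for assembly with ribosomal RNA, and many of their mRNAs start with a run of C and T bases, the terminal oligopyrimidine tract, through which the kinase mTOR and the protein LARP1 govern translation. Ribosomal protein genes have left many processed pseudogenes in mammalian genomes, some nearly identical to the parent coding sequence. Asparagine synthetase, encoded by Asns, makes asparagine from aspartate and is an enzyme of amino acid supply.

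The cells were MBT2, a mouse bladder cancer cell line, stably transfected with a scramble hairpin plasmid, the control, or with either of 2 hairpins against Asns, shAsns#1 and shAsns#2. The study asked which genes change downstream of Asns. Each of the 3 conditions had 1 library, so a value for one hairpin has no replicate check, and both hairpins were read against the same scramble library. The sources used here do not say whether each line is a clone or a pool. In bulk RNA, fewer cells of a type and less RNA per cell cannot be told apart.

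The libraries held between 19167852 and 22915511 counts. Asns stood at 84.3 CPM (counts scaled to the library size after TMM) in scramble, 33.4 in shAsns#1 and 27.7 in shAsns#2, and it fell by 1.46 on the log2 scale over both hairpins (SE 0.15, edgeR adjusted p = 0.0071). Of 14 urothelial and epithelial markers only 5 reached the count minimum, their list summed to between 10.7 and 17.5 CPM, and Krt5, Upk1b and Upk3a were at 0 in every library. None of 5 leukocyte markers reached it, with a sum of at most 0.482 CPM. Fibroblast markers summed to between 235 and 263 CPM, most of it Pdgfra. Single markers went either way: in scramble, shAsns#1 and shAsns#2, Dcn was at 6.96, 18.8 and 25.7 CPM, Col1a1 at 2.89, 1.47 and 1.97, and Krt8 at 1.23, 3.63 and 4.48. The part of these markers in the ribosomal protein values was not tested.

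Starts of members that differ in their ratio are shown first, because the tract lies there. Each run holds 10 bases before and 20 bases from the RefSeq start, read 5′ to 3′ on the gene's strand, with the tract in capitals. The build is GRCm38.p6, and the runs lie at chr3:90213629-90213658 (Rps27, minus strand), chr7:109519185-109519214 (Rpl27a, plus), chr2:180257369-180257398 (Rps21, plus), chr4:86857348-86857377 (Rps6, minus), chr8:123102340-123102369 (Rpl13, plus) and chr10:128549149-128549178 (Rpl41, minus).
Rps27: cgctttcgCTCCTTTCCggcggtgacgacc
Rpl27a: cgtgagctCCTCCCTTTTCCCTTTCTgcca
Rps21: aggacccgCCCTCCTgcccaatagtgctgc
Rps6: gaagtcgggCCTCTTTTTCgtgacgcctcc
Rpl13: tttcgcctgattttgattggcgtttgagat
Rpl41: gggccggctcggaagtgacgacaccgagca
The search took a C followed by at least 4 bases that are each C or T, beginning within 2 bases of an annotated start, on the gene's strand. Such a tract was found for 22 of the 63 members with a promoter in the RefSeq table (34.9%), for 10.6% of all 27025 genes in it and for 11.6% of 69 mitochondrial ribosomal protein genes. Annotated starts can miss the base where transcription begins, and no match says only that these letters are not at that place. Rpl13 and Rpl41, both without a match, are among the genes lower with shAsns#2, and so are Rps27, Rpl27a and Rps21, each with a match. Rps6, with a match, had a log2 ratio of 0.29 with shAsns#2 as deposited and -0.01 with its near-identical copies added. A role of the tract was not tested.

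In scramble the level of a member, as CPM per kilobase of the deposited gene length, ranged from 7.88 to 3082 with a median of 830. The median was 807 in shAsns#1 and 629 in shAsns#2. For large subunit genes it was 876 in scramble, 835 in shAsns#1 and 633 in shAsns#2, and for small subunit genes 782, 723 and 567. The highest levels in scramble were those of Rpl41, the shortest coding sequence of the set (3082 CPM per kilobase), Rplp0 (2580), Rpl23a (2533), Rplp1 (2373) and Rps4x (2140). The lowest were those of Rps27rt, a retrogene of Rps27 (7.88), Rpl5 (17.7), Rps19bp1 (26.2), Rps18 (32.2), Rpl22l1 (32.9) and Rps2 (59.5). For Rpl5, Rps18 and Rps2 most of the reads stood under near-identical copies, as described with the copies.

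Members took 6.09% of the counts in scramble (Clopper-Pearson 95% interval 6.08% to 6.10%), 6.01% in shAsns#1 (5.999% to 6.020%) and 5.04% in shAsns#2 (5.03% to 5.05%). All intervals here cover counting error only. The shAsns#1 share was close to that of scramble, and the shAsns#2 share was lower. Large subunit genes took 3.90%, 3.86% and 3.18% in the same order, and small subunit genes 2.19%, 2.15% and 1.86%. Their ratio of counts, large over small, was 1.78 in scramble, 1.79 in shAsns#1 and 1.71 in shAsns#2. With the near-identical copies described further on added, the ratio was 1.62, 1.63 and 1.60 in the same order.

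Relative to scramble, the members were little shifted with shAsns#1 and lower with shAsns#2. The median log2 ratio was -0.06 with shAsns#1 and -0.41 with shAsns#2, where the median of all kept genes was 0.00 with either hairpin. Scaling by total counts would set the median of all genes at 0.04 and 0.11, so each ratio is to be read relative to it. With shAsns#1, 55 of 83 members were below 0 (50% of all genes), and 9 were lower by more than 0.32 on the log2 scale (10.8% of members), against 19.3% of all genes. No member was higher by that size, against 19.6% of all genes. With shAsns#2, 76 members were below 0 (50.5% of all genes) and 49 were lower by more than 0.32 (59.0% of members), against 22.6% of all genes. The 1 member higher by that size was Rpl5, against 22.4% of all genes.

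The hairpins thus gave different values for the same gene set. Set directly against shAsns#1, shAsns#2 gave a median log2 ratio of -0.31 over the members, and 76 of 83 were below 0, against 50.1% of all genes. In that comparison 39 were lower by more than 0.32, against 13.4% of all genes, and 2 were higher, against 13.3%. With 1 library per hairpin this difference has no test, and a difference between the hairpins and one between the cultures cannot be told apart. The size of any shift over both hairpins therefore rests on shAsns#2: the median of the mean ratio was -0.26, and it was -0.06 without the shAsns#2 library and -0.41 without the shAsns#1 library.

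The subunits had similar medians. The median log2 ratio of the large subunit genes was -0.04 with shAsns#1 and -0.41 with shAsns#2, and that of the small subunit genes was -0.08 and -0.40. Lower by more than 0.32 were 5 of 49 large and 4 of 34 small subunit genes with shAsns#1, and 28 and 21 of them with shAsns#2. The difference between subunits was not tested.

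**Figure D1:**
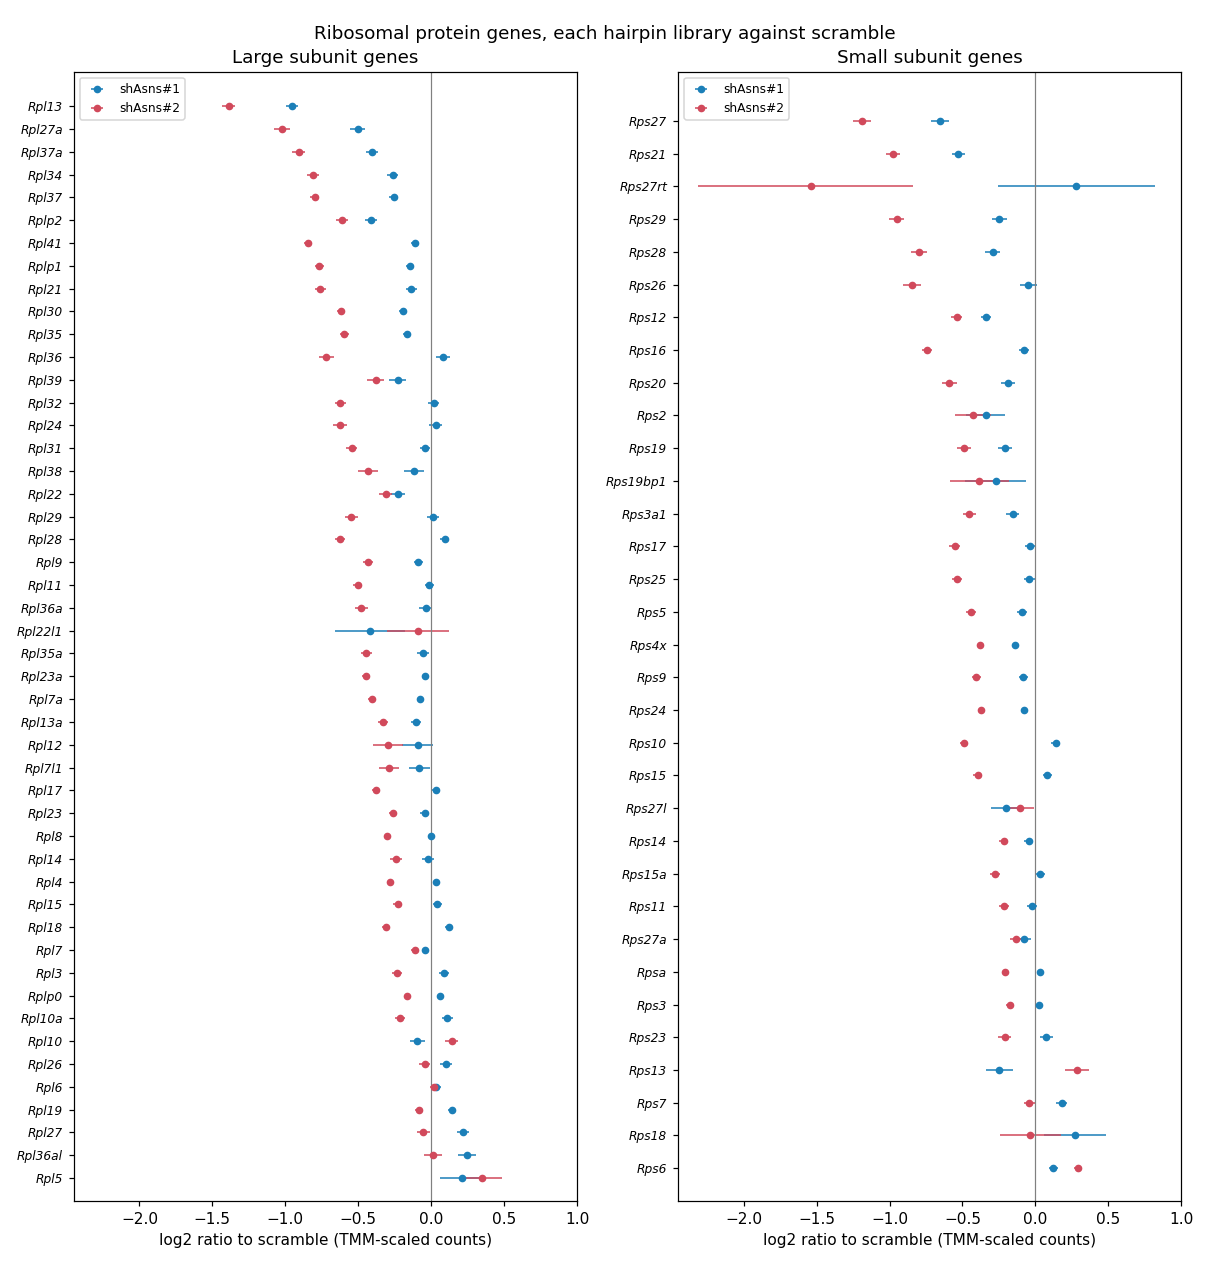
Log2 ratio of TMM-scaled counts to scramble for 48 large subunit genes (left) and 33 small subunit genes (right), ordered by the mean of both ratios, with shAsns#1 in blue and shAsns#2 in red. Points are single libraries against 1 scramble library and bars are 95% counting intervals; red points lie left of blue for 75 of the 81 genes drawn, and Rpl13 has the lowest mean ratio of the large subunit genes.

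Across both hairpins as 1 arm, edgeR called 1 member lower, Rpl13, against 1.51% of all genes, and 0 higher, against 1.14%. At an unadjusted p under 0.05 it found 9 members lower (10.8% of members), against 10.7% of all genes, and 0 higher, against 9.11%. The DESeq2 test called 4 lower, against 1.31% of all genes, and 0 higher, and limma-voom called 0 in either direction. Rpl13, a large subunit protein, had 12756 counts in scramble, 6700 in shAsns#1 and 6244 in shAsns#2, or 876, 452 and 335 CPM per kilobase. Both hairpin libraries were low. The log2 ratio was -0.96 with shAsns#1 (95% counting interval -0.998 to -0.91) and -1.39 with shAsns#2 (-1.43 to -1.34). The edgeR log2 fold change was -1.16 (SE 0.20, adjusted p = 0.033), and over 10 alternatives the adjusted p ran from 2.9e-10 to 0.062 and was under 0.05 in 8. It missed with DESeq2 size factors (0.053) and with voom (0.062). The coding sequence of Rpl13 is repeated whole in the processed pseudogene Gm12918, which had 453 counts in scramble, 961 in shAsns#1 and 2195 in shAsns#2. With such copies added, the ratios were -0.81 and -1.004 and edgeR gave an adjusted p of 0.035; in that table it called 1.73% of all genes lower.

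The next genes by mean ratio did not pass the edgeR test. Rps27, a zinc finger protein of the small subunit, had 5906 counts in scramble, 3824 in shAsns#1 and 3320 in shAsns#2, with log2 ratios of -0.65 and -1.19 (edgeR adjusted p = 0.074). Rpl27a had 6903, 4954 and 4353 counts, with ratios of -0.51 and -1.02 (edgeR adjusted p = 0.12). Rps21 had 9146, 6461 and 5948 counts, with ratios of -0.53 and -0.98 (edgeR adjusted p = 0.11). All of these were lower in both hairpin libraries and lowest in shAsns#2. Rpl37a had 10410, 7991 and 7107 counts, with ratios of -0.41 and -0.91 (edgeR adjusted p = 0.17). Rps27rt had only 55, 68 and 24 counts, and its coding sequence is contained in that of Rps27, so its reads may belong to either gene. Its ratios of 0.28 (-0.25 to 0.82) and -1.54 (-2.31 to -0.84) pointed opposite ways.

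The P stalk of the large subunit, which recruits elongation factors, is built on Rplp0 and carries Rplp1 and Rplp2. Rplp0 had 65426 counts in scramble, 69434 in shAsns#1 and 74535 in shAsns#2, the most of any member in each library, with log2 ratios of 0.06 (0.04 to 0.07) and -0.17 (-0.18 to -0.15). Rplp1 had 22112, 20354 and 16636 counts, with ratios of -0.15 (-0.17 to -0.12) and -0.77 (-0.80 to -0.74). Rplp2 had 10777, 8230 and 9023 counts, with ratios of -0.42 (-0.46 to -0.37) and -0.61 (-0.65 to -0.57). The counting intervals of Rplp1 and Rplp2 thus lay below those of the base gene Rplp0 with either hairpin. Rplp1 and Rplp2 have 342 and 345 coding bases and Rplp0 has 951, and shorter members were lower in general with shAsns#2, as described with coding length. The part of length in this gap was not tested. None of these stalk genes passed the edgeR test. Rpsa, the small subunit protein also known as the laminin receptor, had 40025, 41563 and 44292 counts and ratios of 0.03 and -0.21.

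Above 0 stood 28 members with shAsns#1 and 7 with shAsns#2, and those with the largest mean ratio follow. Rps6, the small subunit protein phosphorylated by the S6 kinases, had 15307 counts in scramble, 16971 in shAsns#1 and 23988 in shAsns#2, with log2 ratios of 0.12 and 0.29. Rpl5, which with Rpl11 and the 5S RNA binds Mdm2, had 677, 797 and 1103 counts, with ratios of 0.21 and 0.35. Rps18 (0.27 and -0.04), Rpl27 (0.22 and -0.05), Rps7 (0.18 and -0.04) and Rpl36al (0.25 and 0.01) were higher with shAsns#1 and close to scramble with shAsns#2. With shAsns#2 the sign of Rps18, Rpl27 and Rps7 turned with total-count scaling. None of these genes passed the edgeR test, and Rps6 had an adjusted p of 0.59. Against the general order, shAsns#2 stood above shAsns#1 for Rps13, a small subunit protein (2023, 1734 and 3159 counts, log2 ratio of shAsns#2 to shAsns#1 0.53), Rpl22l1 (0.33) and Rpl10, an X-linked protein of the large subunit (0.24). The widest gaps the other way were those of Rps27rt (-1.81), Rpl36 (-0.80), Rps26 (-0.80) and Rpl41 (-0.73). Rpl41 itself had 29290, 27572 and 20895 counts.

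How reads were shared between a gene and its pseudogenes or other copies bears on these values. The deposited counts of 73 of the 83 members were not whole numbers in at least 1 library. For 67 members another gene with at least 1 count holds 50% or more of the 31-base words of the coding sequence; the other 16, among them Rps21, Rplp1, Rpl22 and Rps27l, have no such copy. Some copies are annotated as protein-coding, such as Gm10260 for Rps18, BC004004 for Rpl21 and Wdr89 for Rplp2. Their counts need not be reads of the member. In scramble the copies held 1.37% of all counts beside the 6.09% of the members. The member kept at least 90% of the counts of itself and its copies in 57 cases, and under 50% in 11. Rpl5 held 677 counts and its copy Gm15500 held 20853, Rps18 held 337 and Gm10260 held 26072, Rps2 held 1069 and Rps2-ps10 held 32385, and Rpl12 held 1494 and Gm10275 held 23798.

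Summing each member with its copies, a step chosen after seeing the data, left the medians in place and left few ratios above 0 with shAsns#2. The medians were -0.07 with shAsns#1 and -0.41 with shAsns#2. With shAsns#2, 81 of 83 were below 0 and 51 were lower by more than 0.32, against 22.5% of all genes in that table. The exceptions above 0 were Rpl5 (0.18) and Rpl6 (0.02). For Rps6 the copy Rps6-ps4 had 5763, 5693 and 2882 counts, and the summed ratio with shAsns#2 was -0.01 in place of 0.29. For Rps13 the summed ratio was -0.41 in place of 0.29, and for Rpl10 -0.31 in place of 0.14. The order of the hairpins turned too: with copies the ratio of shAsns#2 to shAsns#1 was -0.19 for Rps13 and -0.29 for Rpl10, while that of Rpl22l1, which has no copy, stayed at 0.33. In the 16 members with no copy the medians were -0.09 and -0.31, and all 16 were below 0 with shAsns#2.

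**Figure D2:**
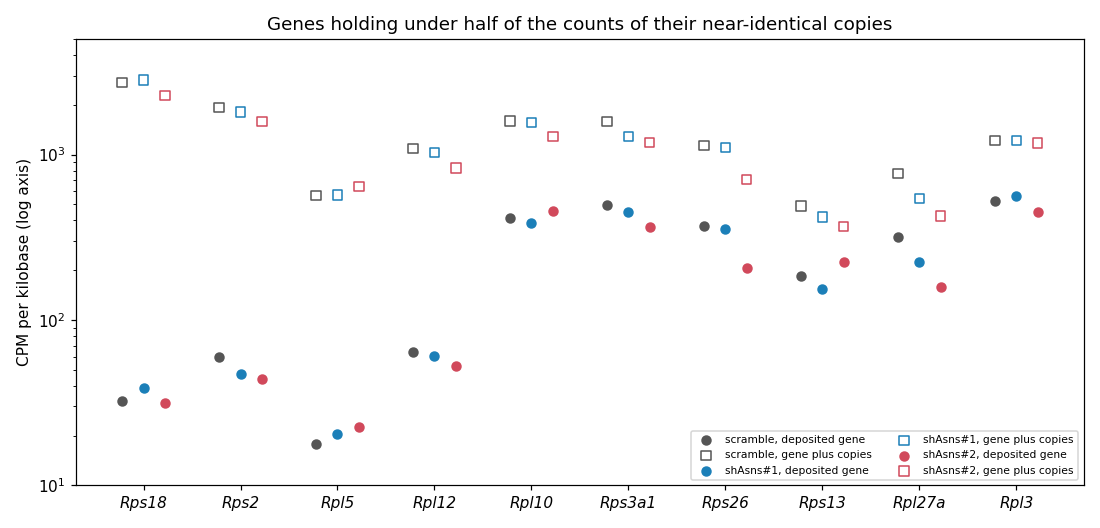
Level in CPM per kilobase (log axis) of 10 genes that held under 50% of the counts of themselves and their near-identical copies in scramble, as deposited (filled circles) and summed with the copies (open squares), for scramble (grey), shAsns#1 (blue) and shAsns#2 (red). Rps18 moves from 32.2 to 2718 in scramble, and for Rps13 and Rpl10 the order of shAsns#2 and scramble turns over once copies are added.

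Paralogues of 4 core genes were compared with their partners in the same libraries. Rps27l, a paralogue of Rps27 known as a p53 target, had 1649 counts in scramble, 1459 in shAsns#1 and 1965 in shAsns#2, and its log2 ratios were -0.20 and -0.10, the latter 0.0071 with total-count scaling. Its share of the pair's counts was 21.8% in scramble (Clopper-Pearson 95% interval 20.9% to 22.8%), 27.6% in shAsns#1 (26.4% to 28.8%) and 37.2% in shAsns#2 (35.9% to 38.5%). Rps27l was thus near its scramble level, and the share was higher beside the lower Rps27. Per kilobase it stood at 16.8%, 22.9% and 35.5% of Rps27.

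Rpl36al, the autosomal paralogue of the X-linked Rpl36a, had 3611, 4360 and 4658 counts beside 8185, 8127 and 7516 for Rpl36a. Its share of the pair was 30.6%, 34.9% and 38.3%, and 23.5%, 27.8% and 29.6% with the copies of both added. In either form the share was lowest in scramble and highest in shAsns#2. Rpl22l1, which can stand in for Rpl22, had 339, 258 and 407 counts, or 4.20%, 3.70% and 4.85% of the pair, with overlapping intervals between scramble and either hairpin. Rpl7l1 held 11.01%, 10.7% and 9.88% of its pair with Rpl7. Its interval in shAsns#2 (9.57% to 10.2%) lay below that in scramble (10.7% to 11.4%). Neither Rps27l nor Rpl36al passed the edgeR test (adjusted p = 0.56 and 0.69), and the shares were not tested between conditions.

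**Figure D3:**
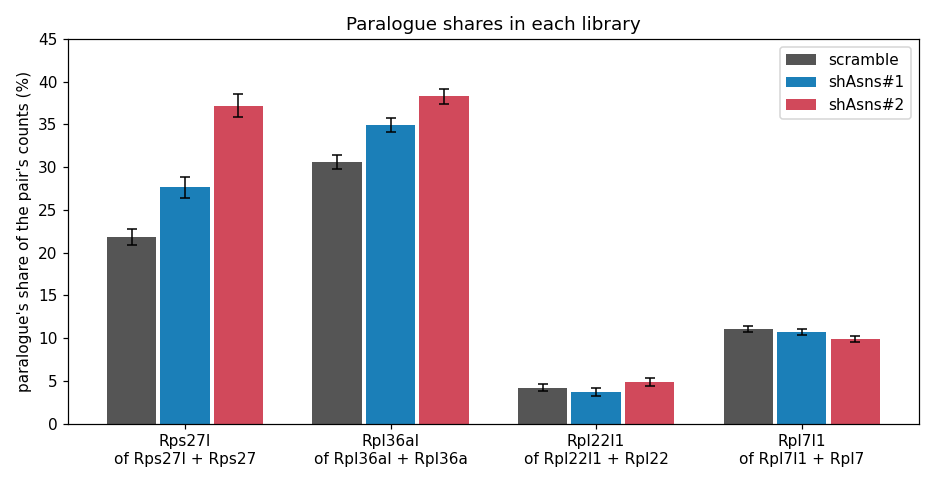
Share of each pair's counts held by the paralogue (percent, axis from 0) in scramble (grey), shAsns#1 (blue) and shAsns#2 (red), 1 library each, with Clopper-Pearson 95% intervals for counting error. The share of Rps27l goes from 21.8% to 37.2% and that of Rpl36al from 30.6% to 38.3%. That of Rpl7l1 goes from 11.01% to 9.88%, and that of Rpl22l1 lies within 3.70% to 4.85%.

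The members differed by coding length. The 11 members of up to 300 coding bases had a median log2 ratio of -0.25 with shAsns#1 and -0.84 with shAsns#2. With shAsns#2 the median was -0.54 for the 30 members of over 300 and up to 450 bases, -0.38 for the 19 of up to 600, -0.24 for the 20 of up to 900, and -0.23 for Rpl3, Rpl4 and Rplp0, the 3 above 900. Shorter members were thus lower. Among those of up to 300 bases, Rps29 stood at -0.95, Rpl37a at -0.91, Rpl41 at -0.84, Rpl37 at -0.80 and Rps28 at -0.80, and Rpl38 at -0.43, Rpl39 at -0.38 and Rps27l at -0.10. Rpl13, with 633 coding bases, lay apart from the longer genes.

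The same order held outside the ribosomal proteins. With shAsns#2, the other protein-coding genes had medians of -0.37, -0.22, -0.16, -0.05 and 0.03 from the shortest to the longest of these classes. Those with a mean count at or above the 10th percentile of the members had -0.54, -0.34, -0.25, -0.14 and -0.03. With shAsns#2 the members lay below both in each class. With shAsns#1 this did not hold. There the members had -0.25, -0.05, -0.02, -0.06 and 0.06 in the same order. The other protein-coding genes had -0.11, -0.06, -0.06, -0.02 and 0.01, and those at such counts -0.19, -0.11, -0.04, -0.06 and 0.001. Against genes at such counts, members were thus lower in the shortest class, level in that of up to 900 bases and higher in the rest. Spearman's rho between coding length and the shAsns#2 ratio was 0.53 over the 83 members (Pearson's r 0.48), 0.32 over 1680 other genes at such counts (Pearson's r 0.33) and 0.17 over 11736 other protein-coding genes (Pearson's r 0.12). With shAsns#1 rho was 0.35 over the members (Pearson's r 0.27). These values run across genes of the same pair of libraries and describe those libraries. For the deposited gene length, rho over the members was 0.30 with shAsns#2 (Pearson's r 0.31) and 0.10 with shAsns#1 (Pearson's r 0.13). Over the 16 members with no copy, rho with coding length was 0.37 with shAsns#2 (Pearson's r 0.40) and 0.66 with shAsns#1 (Pearson's r 0.58). Coding length thus moved with the result, and RNA quality, fragment size and the counter's treatment of short transcripts were not tested.

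**Figure D4:**
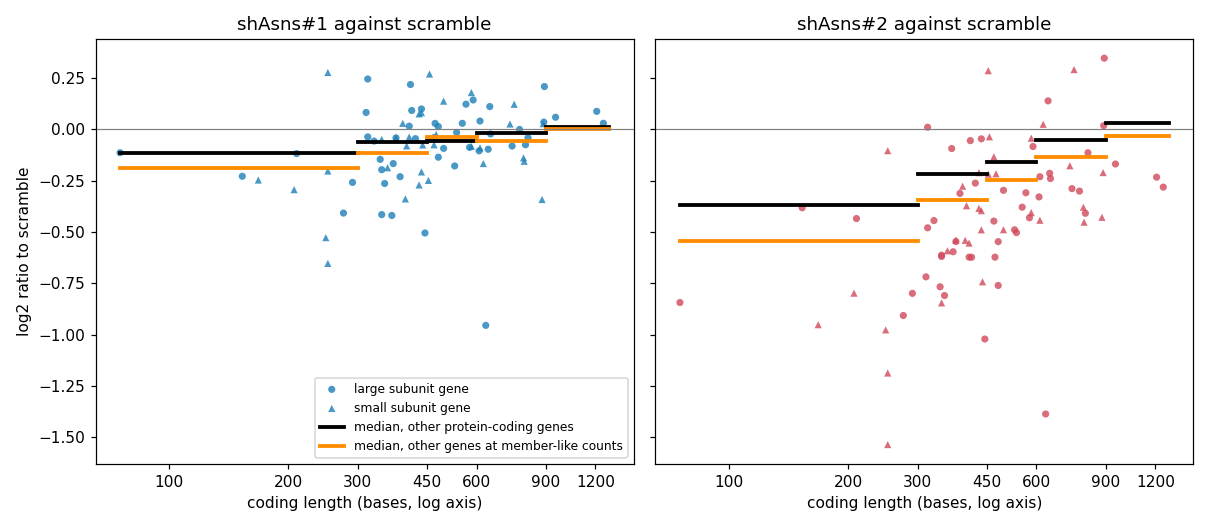
Log2 ratio to scramble against coding length in bases (log axis) for large (circles) and small (triangles) subunit genes, with shAsns#1 at left and shAsns#2 at right. Black lines are medians of other protein-coding genes by length class. Orange lines are those of other genes with a mean count at or above the 10th percentile of the members. With shAsns#2 the black line runs from -0.37 in the shortest class to 0.03 in the longest.

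Asparagine content was read because the knocked-down enzyme makes this amino acid. Asparagine codons were 3.45% of the codons of the median member (range 0% to 8.15%) and 3.37% of those of the median kept protein-coding gene. Rpl41 has none and was lower with shAsns#2 (-0.84), and Rpl32, with the most, stood at -0.62. Spearman's rho between this percentage and the ratio was 0.10 with shAsns#1 (Pearson's r 0.08) and 0.09 with shAsns#2 (Pearson's r 0.11) over the 83 members. Members with and without a match to the tract at an annotated start had similar medians. The 22 with a match had medians of -0.08 with shAsns#1 and -0.42 with shAsns#2, and the 41 without one -0.05 and -0.38. The 41 may hold tracts at starts that the annotation misses, so these medians cannot decide the part of the tract.

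Other genes of ribosome production were read beside the members. Of ribosomal proteins outside the symbol rule, Fau, a small subunit protein made as a fusion with a ubiquitin-like protein, stood at -0.33 and -0.73 (edgeR adjusted p = 0.22), and the scaffold Rack1 at 0.06 and -0.11 (edgeR adjusted p = 0.97). The 78 mitochondrial ribosomal protein genes had medians of 0.01 and -0.15. In edgeR 4 of them fell and 0 rose (2 were higher at an unadjusted p under 0.05, and DESeq2 and voom called 0 higher): Mrpl52 by 0.85 (adjusted p = 0.029), Mrpl34 by 1.04 (0.028), Mrpl54 by 1.14 (0.046) and Mrps26 by 0.68 (0.044) on the log2 scale. Over the alternatives their adjusted p was at most 0.14, and DESeq2 and voom each called 1 lower.

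A list of 16 translation factors, such as elongation factors, was chosen for mRNAs described as beginning with a tract. The search of annotated starts was not read for this list. Its genes had medians of -0.01 and -0.07. None was called by edgeR, DESeq2 or voom, and 1 was lower at an unadjusted edgeR p under 0.05. Tpt1 stood at -0.53 and -0.47, Hnrnpa1 at -0.01 and -0.54, Eif4b at -0.20 and -0.33 and Eef1g at -0.26 and -0.24. The 22 ribosome biogenesis genes had medians of 0.21 and 0.24, on the other side of 0. None was called by these tools, and 8 were higher and 0 lower at an unadjusted edgeR p under 0.05, against 9.11% and 10.7% of all genes. Nop56, a core protein of box C/D snoRNPs, had 5027, 6889 and 11676 counts and ratios of 0.43 and 0.86 (edgeR adjusted p = 0.15). Its partner Nop58 stood at 0.43 and 0.64, Rrp12, an assembly factor, at 0.41 and 0.55, and Dkc1, the pseudouridine synthase of H/ACA snoRNPs, at 0.44 and 0.49. The 10 RNA polymerase I genes had medians of 0.01 and 0.07, and none was called or had an unadjusted p under 0.05 in any of the tools.

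Of 10 regulators, edgeR called Eif4ebp2, a repressor of cap-dependent translation, which had 3095 counts in scramble, 2015 in shAsns#1 and 2411 in shAsns#2. It fell by 0.68 on the log2 scale (SE 0.13, edgeR adjusted p = 0.040), with ratios of -0.65 and -0.72, and the adjusted p was under 0.05 in 8 of 10 alternatives and at most 0.063. Eif4ebp1 stood at -0.44 and -0.43, Zfp622 at -0.49 and -0.24, and Maf1, a repressor of RNA polymerase III, at -0.17 and -0.24. Myc, which drives ribosome production, stood at 0.00 and 0.15, and Larp1 at 0.14 and 0.18. Of the snoRNA host genes, Snhg12 rose by 0.83 on the log2 scale (SE 0.15, edgeR adjusted p = 0.035, and at most 0.055 over the alternatives), from 747 counts in scramble to 1265 and 1818. Snhg1 stood at 0.52 and 1.10 (edgeR adjusted p = 0.11) and Gas5 at -0.29 and -0.16.

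**Figure D5:**
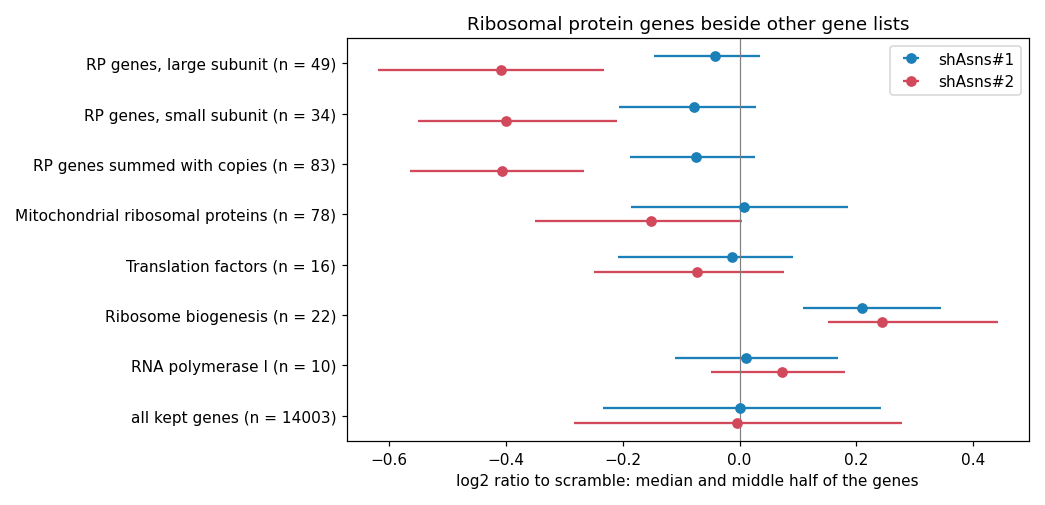
Median (point) and middle 50% (bar) of the log2 ratio to scramble for the members by subunit, the members summed with copies, other lists of ribosome production and all 14003 kept genes, with shAsns#1 in blue and shAsns#2 in red. With shAsns#2 the medians are -0.41 and -0.40 for the subunits, -0.15 for mitochondrial ribosomal proteins and 0.24 for ribosome biogenesis.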

How the data were processed

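RNA-seq libraries of MBT2 cells were analysed from the gene table of the series. The authors deposited expected counts (estimated read counts) per Ensembl gene, unscaled, with a gene length; a TruSeq kit is named in the methods and Bowtie 0.12.2 in the submitters' processing notes, while for the counter, genome build and strand setting the sources used here give nothing. Of values above 0, 32.6% to 33.0% were not whole (tolerance 1e-09). They were rounded. Symbols, coding sequences and biotypes came from GENCODE M21 (52029 of 57010 genes matched; the others held 1.46% of counts).

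Genes needed 10 counts in any library. Ratios used TMM sizes, a prior count of 0.5 and exact conditional binomial 95% intervals; a difference past 0.32 on the log2 scale was counted. The 2 shAsns libraries formed an arm against scramble in edgeR 4.0.16 (glmQLFit, glmQLFTest, Benjamini-Hochberg over 14003 genes, threshold 0.05), which left 1 residual degree of freedom; the biological coefficient of variation was 11.6%; the lone scramble library is assumed to vary like the others, and p-values measure only the spread between the hairpin libraries. The fit was tested on simulated data for shAsns against scramble (13654 genes, 200 of them changed, each with an expected count of at least 50). It recovered 87% of 2-fold and 100% of 4-fold changes, and 7.43% of its calls were unchanged genes. Smaller changes were not simulated. Both hairpin libraries were simulated with the same change, and all genes with the same biological coefficient of variation. The rates therefore do not cover genes on which the hairpins differ, as they did for many members. Reads in near-identical copies cannot be told apart from the parent's. Levels per kilobase used the deposited length, which for Rps15a (5130 bases) and Rps20 (3706 bases) is far above the coding length.

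The members and lists were chosen with earlier results of these data known. Genes named were every paralogue, members called by edgeR, P stalk genes and Rpsa, the 6 highest and 6 lowest levels, the 6 largest mean ratios each way, the 4 largest hairpin differences each way, up to 4 genes of each list, and Asns; short members and those with large copies were named after their values were seen. A few genes that the rule names are not reported here, and they stay in the counts and medians. Alternatives were other scalings, count filters and prior count, pseudogene sums, DESeq2 1.42.0 and limma 3.58.1 (voom), with matplotlib 3.10.9, scipy 1.17.1, pandas 2.3.3, Python 3.11.15, numpy 2.4.6 and R 4.3.3.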

Additional observations from a re-analysis of the deposited data

How the results depend on the processing

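The median log2 ratios of the members and of each subunit kept their sign under every scaling, filter, prior count and copy rule run. With shAsns#1 that sign rests on values near 0, and the median of the members was -0.02 with total counts. The number of members called lower by edgeR was 1 in the main fit, against 1.51% of all genes. It was 0 with DESeq2 size factors, 5 with total counts, 2 with at least 10 counts in every library and 9 with no filter. The DESeq2 test called 4, against 1.31% of all genes, and voom called 0. The share of all genes called under the other settings was not compared, so these numbers cannot be read as particular to the members. The cause of the differences was not tested. Scaling by total counts moved the median of all genes to 0.04 (shAsns#1) and 0.11 (shAsns#2), and the members stayed 0.40 below it with shAsns#2 (median -0.29). That scaling reversed Rpl27 (0.056), Rps27l (0.0071) and Rps7 (0.068) with shAsns#2, and turned the sign, within counting error, of Rps18 (0.075) and Rpl22l1 (0.018) with shAsns#2 and of Rpl36a (0.0017) with shAsns#1. Adding -ps pseudogenes reversed Rpl10 (-0.31), Rps13 (-0.41) and Rps6 (-0.0065) with shAsns#2, and adding near-identical copies, chosen after seeing the data, gave -0.31, -0.41 and -0.0070. Within counting error the sign also turned for Rps18 with -ps pseudogenes (0.0061) and for Rpl36al with copies (-0.0056), both with shAsns#2. The share of counts in members was 6.23%, 6.13% and 5.12% (scramble, shAsns#1, shAsns#2) without mitochondrial genes in the total, 6.72%, 6.61% and 5.56% with -ps pseudogenes and 7.46%, 7.32% and 6.23% with copies. Leaving out either hairpin library gave medians between -0.41 and -0.06 over the members, -0.41 and -0.04 for the large and -0.40 and -0.08 for the small subunit, without a test. Also chosen after the data were seen were the medians over members without copies (-0.09 and -0.31) and over 600 coding bases (-0.02 and -0.23). Of the single-gene values under these settings 572 stayed within counting error, 67 moved and 9 reversed. Of the values for the main results, such as the medians and numbers called, 92 were counted as the same and 15 as moved. No paired analysis was possible because each condition has 1 library. No outlier test was possible at this size.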
